A study of Gallus gallus with 4 samples.

Results

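The genes described here encode the mitochondrial respiratory chain of the chick chorio-allantoic membrane (CAM), the vascularised membrane that lines the egg shell and serves the embryo as its lung. They were chosen by symbol: names that start with NDUF, UQCR, ATP5, SDHA, SDHB, SDHC or SDHD, names of COX followed by a digit, and CYC1, CYCS and SURF1. The rule found 89 genes on the Affymetrix chicken array, with 158 probe sets that carry a single symbol. Of these genes 88 lay above the signal filter, among 10505 named genes tested in all. COX7B, a small subunit of cytochrome c oxidase, fell below the filter, at 1.07 in the control pool, against 11.7, 0.828 and 14.5 in the VEGF-A CAMs. The 88 genes comprise 63 subunits of complexes I to V, the electron carrier cytochrome c and 24 assembly or associated factors.

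RNA was measured on 4 arrays. The 3 VEGF-A arrays each held the CAM of a single chick embryo at day 14 that had carried 3 µg of human recombinant VEGF-A, dried on a plastic disc, for 24 h. The control was 1 array of RNA pooled from 3 normal CAMs of day 14. No strain, sex or genetic change is given for any embryo. The VEGF-A tissue was taken where new capillaries were visible, and the sources differ on whether the control CAMs carried a disc with solvent. All 3 comparisons share the control array, so the spread between control CAMs was not measured, and an exact permutation test of 3 arrays against 1 cannot go below p = 0.25.

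The respiratory chain is a set of protein complexes in the inner mitochondrial membrane. Complex I takes electrons from NADH and complex II from succinate, complex III passes them to cytochrome c, and complex IV hands them to oxygen. Pumping of protons by complexes I, III and IV drives complex V, which makes ATP. Nuclear genes encode all of complex II and most subunits of the others, whereas a core of subunits is encoded in mitochondrial DNA. The CAM exchanges gas, and its chorionic epithelium holds mitochondria-rich villus cavity cells that acidify the shell side. Genes of mitochondrial DNA carried none of the symbols looked up and were not analysed here.

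On the deposited scale, most respiratory chain genes had slightly less signal in the VEGF-A CAMs than in the control pool, and few passed 2-fold. The median over the 88 genes of the mean log2 ratio to the control pool was -0.27, with quartiles of -0.54 and 0.09, beside a median of -0.07 over all genes tested. In the single CAMs the median was -0.31, -0.14 and -0.19, beside -0.05, -0.04 and -0.03 over all genes. The log2 ratio was below 0 in 62 of the 88 genes, or 70.5%, beside 55.0% of all genes. The control pool was above all 3 VEGF-A CAMs in 49 genes (55.7%), beside 29.8% of all genes, and below all 3 in 17 genes (19.3%), beside 24.6%. Median centring of the arrays raises every mean log2 ratio by 0.25, after which the median of the respiratory chain was -0.013 and that of all genes 0.19. The respiratory chain then had 24 genes with the control pool highest, or 27.3% beside 15.0% of all genes. As deposited, 58 of the 88 lay below the median of all genes. Centring cannot change this count, because it shifts every mean ratio alike.

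A gene was called when its ratio to the control passed 2-fold in 2 or more of the 3 VEGF-A CAMs. By this 2-fold rule, 5 respiratory chain genes were lower (5.68%), beside 6.03% of all genes, and 3 were higher (3.41%), beside 5.37%. These shares lie close to or below those of all genes. limma called 0 of the 88 genes at an adjusted p under 0.05, and 0% of all genes. Adjusted p-values of limma ran from 0.65 to 0.99 in the respiratory chain. At an unadjusted p under 0.05, limma gave 10 genes that were lower (COX17, NDUFAF2, NDUFA6, SDHAF4, NDUFB3, NDUFB1, NDUFA2, NDUFS3, UQCRB and NDUFAF1) and 1 that was higher (ATP5B), beside 2.11% and 3.98% of all genes. The 3 VEGF-A CAMs leave 2 residual degrees of freedom, and limma draws their spread towards that of all probe sets past the filter. The lone control array is taken to vary like the CAMs. The p-values thus hold no measured spread between control CAMs and cover only these samples.

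**Figure D1:**
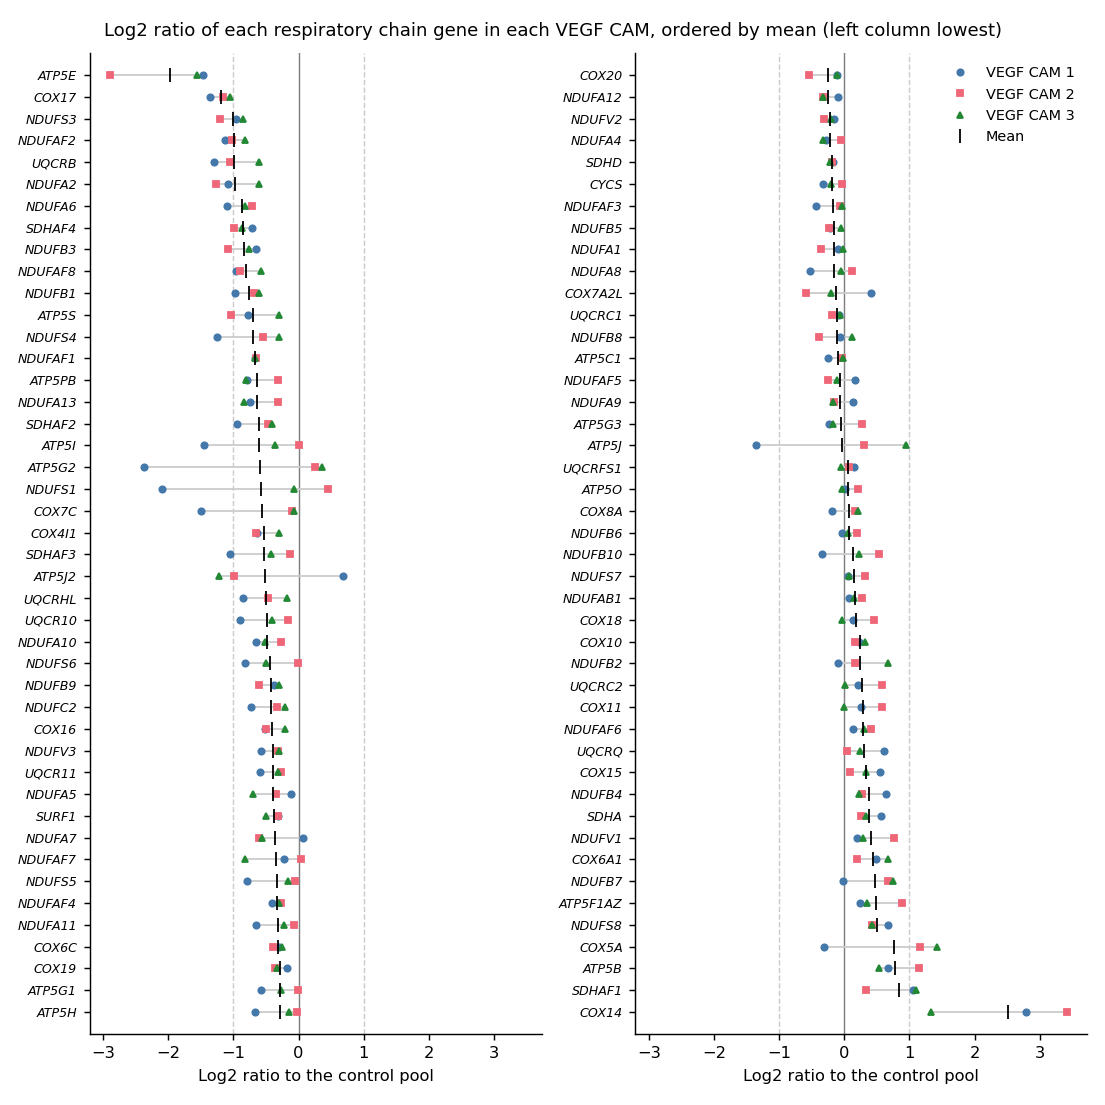
Log2 ratio to the control pool (x axis) of each of the 88 respiratory chain genes (y axis) in VEGF CAM 1, 2 and 3, ordered by their mean (black bar) from the lowest in the left column to the highest in the right, with dashed lines at 2-fold. The mean ratio lies below 0 in 62 genes, or in 45 after median centring, and the wide rows of NDUFS1, ATP5G2 and COX7C come from VEGF CAM 1.

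Complex I, the NADH dehydrogenase, had 33 subunits measured, with a median log2 ratio of -0.32 (-0.06 after median centring) and a range from -1.01 to 0.50. Without VEGF CAM 1 the median was -0.19. The ratio was below 0 in 24 of the 33, and 1 was lower by the 2-fold rule and 0 were higher. NDUFA2, an accessory subunit, gave 305 in the control pool, against 144, 127 and 200.2 in VEGF CAM 1, 2 and 3. All 3 CAMs were below the control, with a mean log2 ratio of -0.98 ± 0.34 (SD, n = 3). The call rests on VEGF CAM 1 and 2, the only CAMs past 2-fold. With a CAM left out both others had to pass, so leaving out either of these removes the call by rule.

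NDUFS3, a core subunit of the peripheral arm, had a control signal of 75.3, and signals of 38.7, 32.5 and 41.7 after VEGF-A. The CAMs lay together at about the same distance below the control, with a mean log2 ratio of -1.01 ± 0.18 (SD, n = 3). It passed 2-fold in VEGF CAM 2 alone. NDUFB1, an accessory subunit of the membrane arm, had 2033 in the control and 1034, 1263 and 1329.8 in the CAMs, which did not overlap with the control. NDUFA6, which joins the acyl carrier protein to complex I, measured 1108 in the control pool and 519, 675 and 628 in the CAMs. NDUFB3, a membrane arm subunit, gave 1288 in the control and 818, 608 and 761 in the CAMs. The mean log2 ratios of NDUFB1, NDUFA6 and NDUFB3 were -0.76, -0.88 and -0.83, each with all 3 CAMs below the control.

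The brightest probe sets of complex I were those of NDUFS6 and NDUFA11. NDUFS6, a zinc-binding accessory subunit, had 4472 in the control and 2534, 4452 and 3172 in the CAMs. VEGF CAM 2 was level with the control, and the mean was -0.44 ± 0.41 (SD, n = 3). NDUFA11, a membrane arm subunit, stood at 2459 in the control and at 1570.4, 2331 and 2100.2 in the CAMs, a mean log2 ratio of -0.32 ± 0.30 (SD, n = 3).

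Some catalytic subunits of complex I stood among the highest ratios. NDUFV1, which binds NADH and flavin, had 625 in the control and 715, 1056 and 761 in the CAMs. NDUFS8, an iron-sulfur subunit close to the quinone site, had 161 in the control and 256, 216 and 216 in the CAMs. In both genes every CAM was above the control, with mean log2 ratios of 0.41 ± 0.30 and 0.50 ± 0.14 (SD, n = 3), and the 95% limma interval of NDUFS8, from -0.26 to 1.27, includes no change, as does that of NDUFV1. NDUFB7, an accessory subunit, measured 114 in the control and 112, 182 and 192 in the CAMs, so that VEGF CAM 1 alone lay beside the control. Its mean log2 ratio was 0.47, or 0.72 without VEGF CAM 1.

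NDUFS1, the largest iron-sulfur subunit, varied most within complex I. Its signal was 835 in the control and 194, 1146 and 799 in the CAMs. VEGF CAM 1 was far below and VEGF CAM 2 above the control, which gave a mean log2 ratio of -0.57 ± 1.35 (SD, n = 3). A second probe set of NDUFS1 had 300.2 in the control and 369, 403 and 192 in the CAMs, with VEGF CAM 3 lowest instead. The remaining one had 56.2 in the control and 48.7, 67.1 and 85.3 in the CAMs, with VEGF CAM 1 lowest.

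Complex II, succinate dehydrogenase, had 2 subunits on the array under these symbols, and on the deposited scale they lay on opposite sides of the control. SDHA, the flavoprotein that oxidises succinate, had 1285 in the control and 1902, 1535 and 1615 in the CAMs. SDHD, a membrane anchor, had 1386 in the control and 1229, 1210.4 and 1194 in the CAMs. All CAMs were above the control for SDHA (mean log2 ratio 0.38 ± 0.16, SD, n = 3) and below it for SDHD (-0.19 ± 0.02). Neither passed limma, with adjusted p-values of 0.86 and 0.88.

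Complex III, the cytochrome bc1 complex, had 8 subunits measured with a median log2 ratio of -0.25, which came to -0.00 after median centring. UQCRB, which sits near a quinone site, was the 1 subunit lower by the 2-fold rule, with 188 in the control and 76.2, 91.2 and 124 in the CAMs. Each CAM was below the control, and the mean log2 ratio was -0.98 ± 0.36 (SD, n = 3). UQCRB passed 2-fold in VEGF CAM 1 and 2 only, on which the call rests. Its other probe sets, of lower signal, gave mean log2 ratios of -0.32 and -0.02.

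The large core protein UQCRC1, of the brightest probe set in complex III, had 4413 in the control and 4154, 3852 and 4214 in the CAMs. It stayed within 0.20 of the control in every CAM on the log2 scale. UQCR10, a small subunit beside cytochrome c1, gave 4174 in the control and 2245, 3712 and 3142 in the CAMs, a mean log2 ratio of -0.49 ± 0.37 (SD, n = 3). UQCRHL, the platform's name for the hinge protein that helps cytochrome c1 dock, gave 3315 in the control and 1828, 2397 and 2932 in the CAMs. In contrast, UQCRC2, the second core protein, had 1468 in the control and 1706, 2199.7 and 1471 in the CAMs, none of them below the control. UQCRFS1, the Rieske iron-sulfur protein, had a mean log2 ratio of 0.05 ± 0.09 (SD, n = 3), with VEGF CAM 3 just below the control. CYCS, cytochrome c itself, measured 998 in the control and 793, 974 and 870.1 in the CAMs, a mean log2 ratio of -0.19 ± 0.15 (SD, n = 3).

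Complex IV, cytochrome c oxidase, had 7 nuclear subunits measured, with NDUFA4 counted here and not in complex I. The median log2 ratio was -0.22, the value of NDUFA4 itself, and turned to 0.03 after median centring. It was -0.09 without VEGF CAM 1, and -0.08 with no filter, which adds COX7B. COX4I1, the subunit at which ATP regulates the enzyme, had 6263 in the control and 4008, 3961 and 5060 in the CAMs, with all 3 below the control and a mean log2 ratio of -0.54 ± 0.20 (SD, n = 3). COX6C, a small membrane subunit, had 2814 in the control and 2275, 2152 and 2371 in the CAMs, a mean of -0.31 ± 0.07. A second, dimmer probe set of COX6C had 151 in the control and 121, 46.3 and 62.4 in the CAMs, a mean of -1.10. COX7C showed the low value of VEGF CAM 1 again, with 2545 in the control and 900.2, 2366 and 2426 in the CAMs.

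COX5A and COX6A1, a matrix side subunit and a membrane subunit of complex IV, had means above 0. COX5A was higher by the 2-fold rule, with 45.7 in the control and 36.9, 103 and 122 in the CAMs. VEGF CAM 1 lay below the control and the others above it, so the groups overlapped, and the mean log2 ratio was 0.76 ± 0.93 (SD, n = 3), or 1.29 without VEGF CAM 1 and 0.43 without VEGF CAM 3. Its other probe set gave 48.2 in the control and 38.2, 41.7 and 34.2 in the CAMs, with a mean log2 ratio of -0.35, so the direction depends on the probe set. COX6A1 had 1199 in the control and 1676, 1373 and 1902 in the CAMs, all above it, with a mean log2 ratio of 0.45 that became -0.18 in its dim second probe set.

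Complex V, the ATP synthase, had 13 subunits measured with a median log2 ratio of -0.28 (-0.03 after median centring). This median rests on VEGF CAM 1: it was -0.58, 0.0014 and -0.15 in the single CAMs, and -0.03 without VEGF CAM 1. With an offset of 32 it was -0.11. ATP5B, the catalytic beta subunit, had 1225 in the control and 1941, 2702 and 1781 in the CAMs. Every CAM was above the control, and the mean log2 ratio was 0.78 ± 0.32 (SD, n = 3), with a limma adjusted p of 0.77. ATP5F1AZ, the alpha subunit that alternates with beta, had 3219 in the control and 3803, 5956 and 4079.8 in the CAMs, also all above it, with a mean of 0.49 that was 0.29 without VEGF CAM 2. ATP5C1, the gamma subunit of the rotor, gave 2527 in the control and 2129.8, 2478 and 2479.5 in the CAMs, a mean of -0.10. A second, dimmer probe set of ATP5C1 had 182 in the control and 88.9, 76.6 and 77.0 in the CAMs. Its mean log2 ratio was -1.17, so the size of the change depends on the probe set.

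ATP5E encodes the small epsilon subunit of the same rotor. Its signal was 32.3 in the control and 11.7, 4.34 and 11.0 in the CAMs, all below the control and near the filter signal of 11.1. The mean log2 ratio was -1.97 ± 0.80 (SD, n = 3), with a limma adjusted p of 0.85. Its probe set passed the filter only through the control. With an offset of 32 on every signal the ratio was -0.65 and the call was not made, and a filter at the 60th percentile left the gene out.

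Subunits of the membrane part of complex V depended on the CAM. ATP5I, the e subunit that holds ATP synthase dimers, had 9579 in the control and 3506, 9589 and 7427 in the CAMs. VEGF CAM 1 was far below and VEGF CAM 2 level with the control, for a mean log2 ratio of -0.61 ± 0.75 (SD, n = 3). Genes for the proton-carrying c ring also spread: ATP5G3 had 7553 in the control and 6419, 9134 and 6687 in the CAMs, on both sides of the control. ATP5G1, which encodes the same mature protein in mammals, had 2586 in the control and 1733, 2576 and 2147 in the CAMs. ATP5G2, the further copy, measured 23.9 in the control and 4.63, 28.5 and 30.5 in the CAMs.

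**Figure D2:**
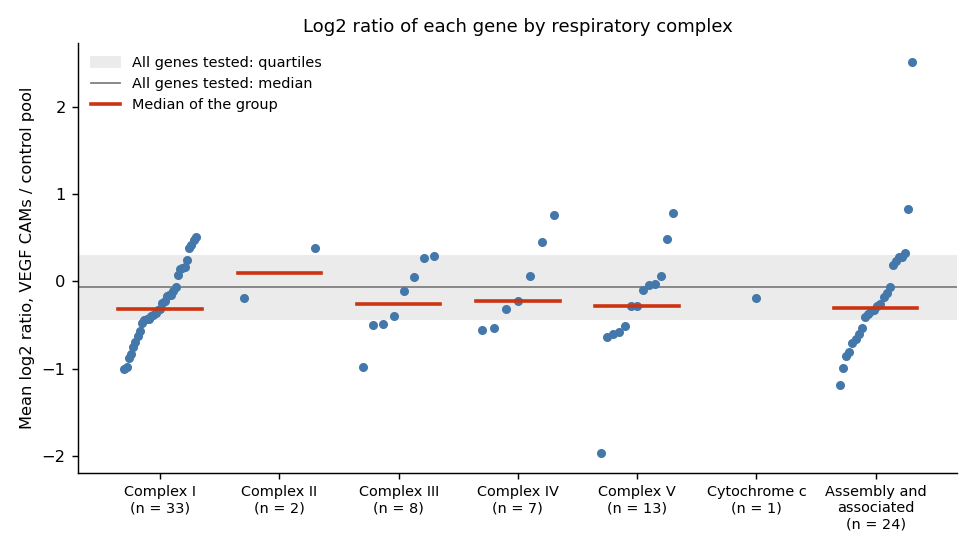
Mean log2 ratio of the 3 VEGF-A CAMs to the control pool (y axis) for each gene (point) by complex or as an assembly factor, with the median of each group in red and the median and quartiles of all 10505 genes in grey. The medians of complexes I, III, IV and V lie between -0.32 and -0.22 on the deposited scale, where that of complex IV turns to 0.03 after median centring. Without VEGF CAM 1 they spread from -0.21 (complex III) to -0.03 (complex V).

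Within the complexes, a core set of subunits, as listed here, and the other subunits had different median log2 ratios on the deposited scale. Their ranges overlapped, from -1.97 to 0.78 in the core and from -0.98 to 0.76 in the others. The -1.97 is the value of ATP5E, which passed the filter only through the control. SDHD, a membrane anchor, and ATP5C1 and ATP5E of the rotor were counted with the core. The core proteins UQCRC1 and UQCRC2 of complex III were counted with the others. This division was made after the values were seen and was not tested. The 13 nuclear subunits of the core (NDUFV1, NDUFV2, NDUFS1, NDUFS3, NDUFS7, NDUFS8, SDHA, SDHD, UQCRFS1, ATP5F1AZ, ATP5B, ATP5C1 and ATP5E) had a median log2 ratio of 0.05, with 7 above 0 and 6 below. The median was 0.06, 0.26 and -0.03 in VEGF CAM 1, 2 and 3. Over the 50 other subunits it was -0.32, with 38 below 0 and 12 above, and -0.45, -0.16 and -0.20 in the single CAMs. NDUFS3 and ATP5E are core members with low ratios, and COX6A1, NDUFB7 and COX5A are others with high ones.

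COX17, the copper chaperone that supplies complex IV, had the lowest mean log2 ratio, on the deposited scale, of the 24 assembly and associated factors. It gave 1833 in the control pool, against 714, 823 and 880.2 in the CAMs. The CAMs lay close together below the control, with a mean log2 ratio of -1.19 ± 0.15 (SD, n = 3), or 2.28-fold lower. Its limma adjusted p of 0.65 was the lowest of the respiratory chain, and its ratio ran from -1.26 to -0.94 over 12 alternatives. Of these, a floor on low signals, the filters and the probe set choices left it at -1.19. They could not change it, because it is bright and has 1 probe set. Of the 88 genes 2, COX17 and ATP5E, were more than 2-fold below the control in every CAM (2.27%), beside 1.29% of all genes, and 1, COX14, was above it likewise (1.14%), beside 2.3%. ATP5E passed the filter only through the control and COX14 only through the CAMs, so these shares rest partly on the filter. COX17 has a single probe set past the filter, so no second measurement stands beside it.

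Other copper and heme factors of complex IV had values on both sides of the control, and their difference from COX17 was not tested. COX11, which passes copper to the catalytic subunit, had a mean log2 ratio of 0.28, and COX19, a soluble copper protein, of -0.29 with every CAM below the control. CMC2, a factor of complex IV named outside the rule, had 108 in the control and 75.4, 59.9 and 80.4 in the CAMs, all below it. COX10 and COX15, which make heme A, had means of 0.24 and 0.33. COX15 stood at 128 in the control and at 187, 136 and 162 in the CAMs, so that none was below the control. COX16, COX18 and COX20, which work on the maturation of the second mitochondrially encoded subunit, had means of -0.41, 0.18 and -0.26. SURF1, an early assembly factor known from Leigh syndrome in humans, had 222 in the control and 178, 178 and 157 in the CAMs, a mean of -0.38, while a second probe set was at 0.00.

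COX14, which couples translation of the first mitochondrially encoded subunit to assembly, was higher by the 2-fold rule from a dim control. Its signal was 3.19 in the control and 22.0, 34.1 and 8.03 in the CAMs. All CAMs were above the control, which sat near the 20th percentile of all signals (3.12), and the mean log2 ratio was 2.51 ± 1.07 (SD, n = 3). With an offset of 32 added to each signal it was 0.57, below the 0.77 of ATP5B, and COX14 was no longer higher by the 2-fold rule. Its probe set passed the filter only through the CAMs. COX7A2L, a factor of supercomplexes, had 1503 in the control and 1991, 1003 and 1303 in the CAMs, on both sides of it.

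**Figure D3:**
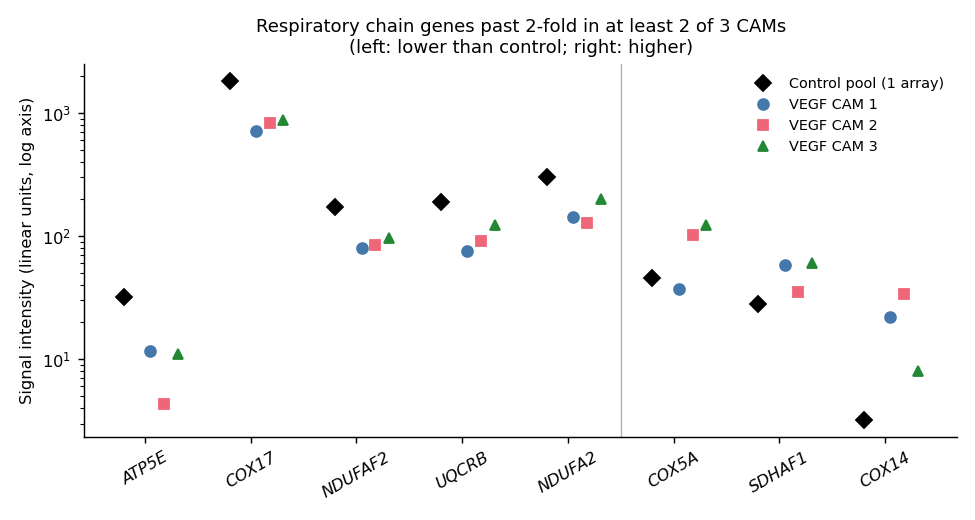
Signal on a log axis (y axis) of the 8 respiratory chain genes called by the 2-fold rule, for the control pool (1 array, black) and each VEGF-A CAM. The 5 lower genes stand left of the line with the control above every CAM, and of the 3 higher genes on the right COX5A overlaps the control and COX14 starts from 3.19.

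Assembly factors of complex I had a median log2 ratio of -0.33 over 8 genes, with 7 below 0. NDUFAF2, a chaperone of late complex I assembly, had 173 in the control and 79.4, 84.9 and 97.5 in the CAMs. Every CAM was below the control, with a mean log2 ratio of -0.99 ± 0.15 (SD, n = 3), and the 2-fold call needed both VEGF CAM 1 and VEGF CAM 2. NDUFAF1, which builds the membrane arm, had 1591 in the control and 1001, 1012 and 1006 in the CAMs. The 3 CAMs were nearly equal, with a mean log2 ratio of -0.66 ± 0.0084 (SD, n = 3), and limma, which draws the spread towards that of all genes, gave an adjusted p of 0.77.

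NDUFAF8, the partner of NDUFAF5, had 202 in the control and 104, 108 and 136 in the CAMs, all below it, with a mean of -0.81. NDUFAF5, which modifies an arginine of NDUFS7, stood at -0.07 on the same log2 scale. The difference within this pair was not tested. NDUFAF3 and NDUFAF4, which act together early, had means of -0.18 and -0.33. NDUFAF7, a methyltransferase, had a mean of -0.34, and NDUFAF6 of 0.28.

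Complex II factors split by direction on the deposited scale. SDHAF4, which binds flavin-loaded SDHA, had 419.7 in the control and 255, 212 and 230.2 in the CAMs, all below the control, with a mean log2 ratio of -0.86 ± 0.13 (SD, n = 3). A second probe set had 134 in the control and 90.3, 86.1 and 147 in the CAMs, a mean of -0.36 with VEGF CAM 3 above the control. SDHAF2, which helps attach the flavin, and SDHAF3, which acts on the iron-sulfur subunit, had means of -0.61 and -0.54, with all CAMs below the control. SDHAF1, the partner of SDHAF3, was higher by the 2-fold rule, with 28.0 in the control and 58.4, 35.2 and 60.2 in the CAMs, a mean of 0.83 ± 0.43. That call rests on VEGF CAM 1 and 3, the only CAMs past 2-fold. ATP5S, a factor associated with complex V, had 383 in the control and 223, 186 and 312 in the CAMs, a mean of -0.71.

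Probe sets of the same gene did not always give the same direction. Of the 88 genes 55 had 1 probe set past the filter and 33 had several, of which 19 kept their sign over all probe sets and 14 did not: ATP5J2, ATP5O, COX5A, COX6A1, NDUFA10, NDUFA12, NDUFA13, NDUFA7, NDUFAF4, NDUFB3, NDUFB4, NDUFS1, SDHAF2 and SURF1. NDUFB3, low in its main probe set, had 660.3 in the control and 843, 518 and 801 in the CAMs in a second one, a mean log2 ratio of 0.09. NDUFA12, a subunit of the peripheral arm, had 2200.4 in the control and 2053, 1763 and 1758 in the CAMs, whereas a dim probe set went from 5.14 to 19.6, 16.2 and 15.9. Among the 32 genes whose main probe set had a mean signal of at least 1000, the median log2 ratio was -0.28, beside -0.07 over 1100 genes of like signal. On the deposited scale the ratio was below 0 in 26 of the 32 (81.25%), beside 56.7% of the 1100.

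**Figure D4:**
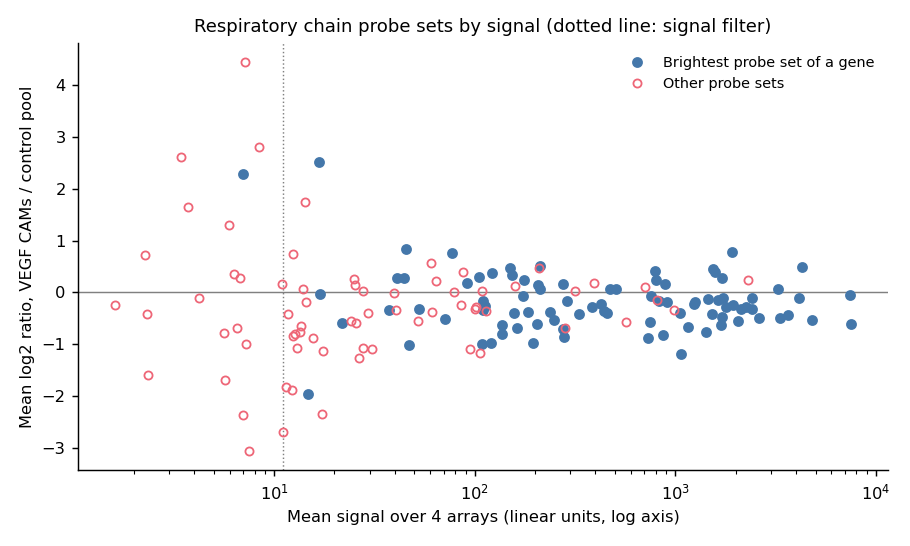
Mean log2 ratio to the control pool (y axis) of every respiratory chain probe set against its mean signal over the 4 arrays (x axis, log scale), with the brightest probe set of a gene filled and the filter signal of 11.1 dotted. Log2 ratios beyond 2 in either direction come from dim probe sets, while the 32 genes with a signal of at least 1000 have a median of -0.28 on the deposited scale.

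VEGF CAM 1 carried much of the low signal. It was the lowest of the 3 CAMs in 44 of the 88 genes, or 50%, beside 33.9% of genes outside the respiratory chain. Among the 1100 genes with a mean signal of at least 1000 the share was 47.6%, and among the 32 such genes of the chain 56.3%. VEGF CAM 2 was lowest in 26 and VEGF CAM 3 in 18. The summed signal of the 88 genes was 106963 in the control pool and 79641, 102040 and 93300 in VEGF CAM 1, 2 and 3. Over all genes tested the sum was 5000150 in the control pool and 4519000, 5062390 and 4912780 in the CAMs. Over the 1100 bright genes it was 3280100 and 2772000, 3350140 and 3170520, so VEGF CAM 1 had the lowest sum there too. Without VEGF CAM 1 the median log2 ratio was -0.18, beside -0.05 over all genes. COX17 and ATP5E, past 2-fold in every CAM, keep their call by rule whichever CAM is left out.

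Other mitochondrial lists had medians on both sides of 0. Of 18 genes of the citric acid cycle and pyruvate dehydrogenase, which feed the chain, 2 were lower and 0 higher by the 2-fold rule, with a median log2 ratio of 0.01. The lower ones were PC, which fills the cycle from pyruvate, and DLAT, the core of pyruvate dehydrogenase, both dim. Their probe sets passed the filter only through the control, so these calls rest partly on the filter. MDH2, the malate dehydrogenase of the cycle, had 105 in the control and 175, 211 and 173 in the CAMs, all above it. No gene of fatty acid oxidation (10 measured, median 0.11), of the regulators of mitochondrial biogenesis (15, median 0.08) or of carriers, porins and MICOS (18, median -0.08) passed the 2-fold rule.

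Protein import genes, which bring nuclear-encoded subunits into mitochondria, had the lowest median of the mitochondrial lists measured here, -0.41 over 20 genes, with 0 past the 2-fold rule. TOMM7, a small part of the outer membrane pore, had 3010.4 in the control and 1285, 2052 and 2052 in the CAMs, all below it. TOMM5, another small part of that pore, had 420.2 in the control and 65.5, 429 and 320.3 in the CAMs, so that its mean of -1.01 came mainly from VEGF CAM 1. The 19 assembly factors whose names fall outside the rule had a median of -0.17, with 0 past 2-fold. Mitochondrial ribosomal proteins (64 genes) had a median of -0.12 with 2 lower and 1 higher. Those of the cytosolic ribosome (63 genes) had one of -0.28 with 3 lower and 0 higher. The lower shares were 3.1% and 4.8%, beside 6.03% of all genes. The cytosolic ribosome's median stands beside that of -0.27 in the respiratory chain, and in its single CAMs it was -0.60, -0.15 and -0.13.

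**Figure D5:**
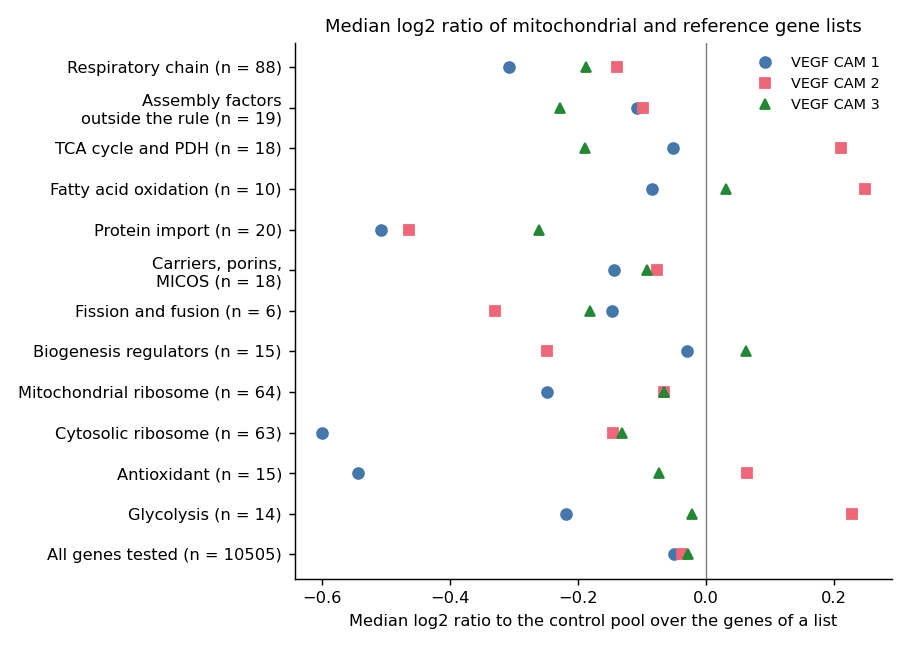
Median log2 ratio to the control pool (x axis) over the genes of each list (y axis, with the number measured) in each VEGF-A CAM, on the deposited scale. The respiratory chain (-0.31, -0.14 and -0.19) lies left of all genes tested in every CAM. So do protein import, the cytosolic and mitochondrial ribosomes, carriers, porins and MICOS, fission and fusion, and assembly factors outside the rule. Median centring moves all points to the right.

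Markers of cell types differed between the arrays as well. Of the 10 markers of blood endothelium, 7 were higher by the 2-fold rule (70%). Over all genes 5.37% were higher and 6.03% lower. Of the 10, 8 were above the control in every CAM (80%, beside 24.6% of all genes). Another 1 was below it in every CAM (10%, beside 29.8%), and 1 lay on both sides. The summed signal of the 10 was 4129 in the control and between 5929 and 9343 in the CAMs. PECAM1, CDH5, KDR, TEK, TIE1, CD34 and CLDN5 are in the authors' list of raised genes, which was drawn from these same arrays. The count of endothelial markers was thus largely known beforehand and is no independent evidence. Of 10 epithelial markers 7 were measured and 1, KRT5, was lower, with sums of 37108 in the control and 26649, 41134 and 33578 in the CAMs. Of 8 markers of mitochondria-rich villus cavity cells 7 were measured and 1, SLC4A1, was higher, with sums of 1732 in the control and 2181, 2634 and 2194 in the CAMs. CA2, a defining marker of those cells, had 69.7 in the control and between 35.7 and 97.2 in the CAMs. Of the 7 markers 2 were above the control in every CAM, 1 was below it and 4 lay on both sides. Which cells the SLC4A1 signal came from was not tested. The fibroblast list (8 of 8 measured, 1 lower and 1 higher by the 2-fold rule) summed to 27962 in the control and to between 36233 and 51059 in the CAMs. Of these 8, 5 were above the control in every CAM (62.5%, beside 24.6% of all genes). A further 1 was below it in every CAM (12.5%, beside 29.8%), and 2 lay on both sides. Macrophage and leukocyte markers (7 of 7 measured) summed to 2854 in the control and to 1726, 2392 and 3482 in the CAMs, lowest in VEGF CAM 1, with 1, CD83, lower. Red blood cell markers (5 of 12 measured, 1, HBZ, higher) summed to 26691 in the control and to between 22659 and 36901 in the CAMs. Smooth muscle markers (4 of 6 measured, 0 past the 2-fold rule) summed to 1225 in the control and to between 984 and 1469 in the CAMs. In bulk tissue, fewer cells of a type and less RNA per cell cannot be told apart.

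The median signal over all chicken probe sets was 19.1 in the control and 15.3, 17.2 and 15.7 in VEGF CAM 1, 2 and 3. The ratio of 3′ to 5′ signal of actin, which rises as RNA is broken, was 24.2 in the control and 15.5, 19.7 and 22.9 in the CAMs, lowest in VEGF CAM 1. That of GAPDH was 64.0 in the control and 39.9, 52.4 and 62.3 in the CAMs. For ef1a, an elongation factor, it was 8.74 in the control and 5.74, 6.65 and 7.38 in the CAMs. The control pool thus had the highest ratio for each of these genes. The part of cell types, scaling and RNA quality in the low ratios of the respiratory chain was not tested.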

How the data were processed

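The data comprise 4 Affymetrix chicken arrays, of 1 control pool and 3 VEGF-A CAMs. For every probe set the authors deposited a linear signal intensity, and the submitters' processing notes name GCOS 1.2. The deposited intensity was used as scaled, where the trimmed mean was 100.0 on every array. 0 value columns were left out, and detection calls were not used here. Depth does not apply to arrays, and the number of arrays limits the precision.

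Probe sets past the 40th percentile of mean signal (11.1) were kept, which left 22616 of 37693, and log2 ratios to the control pool were taken. A call needed a change over 2-fold in 2 or more of the 3 CAMs. limma 3.58.1 in R 4.3.3 used a variance trend (5.23 prior degrees of freedom) and Benjamini-Hochberg adjustment over all probe sets past the filter, and plots were drawn in Python 3.11.15 with matplotlib 3.10.9. The functions were tested on simulated data.

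Gene names come from the platform table, and 87 of the 88 genes matched the RefSeq table of assembly GRCg7b. Each gene was read from its brightest probe set, by mean signal over the 4 arrays, among those with 1 symbol, and 1 probe set of COX7A2 with several symbols was left out. Affymetrix probe sets marked as shared between transcripts can also read near-identical copies. The genes and lists were chosen with earlier results of these data known. Named genes are the assembly factors, the genes called by the 2-fold rule, the 12 lowest and 8 highest ratios, the brightest 2 genes of each complex, genes whose probe sets differ in sign and paralogs, and up to 4 genes of each other list. NDUFV1, NDUFS1, NDUFS7, NDUFV2, NDUFA4, UQCRFS1, UQCRC2, UQCRHL, CYCS, ATP5C1, COX7C and CA2 were named after their values were seen. Other scalings, filters, low-signal treatments, probe set choices, thresholds and left-out CAMs were tried as alternatives.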

Additional observations from a re-analysis of the deposited data

How the results depend on the processing

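The count of respiratory chain genes lower by the 2-fold rule was 5 as deposited, 2 after median centring, 1 (COX17) with an offset of 32, 17 with a 1.5-fold rule (beside 16.4% of all genes), 2 when all 3 comparisons had to pass, and 2 to 5 with a VEGF-A CAM left out: without VEGF CAM 1 or without VEGF CAM 2 NDUFA2, NDUFAF2 and UQCRB were lost. The count of higher genes was 3 as deposited (3.41%, beside 5.37% of all genes) and 0 with the offset (beside 1.34%). It was 5 with the 1.5-fold rule (5.68% beside 12.9%) and 1 when all 3 comparisons had to pass (1.14% beside 2.3%). COX14 and COX5A stayed higher without VEGF CAM 1 (2.27% beside 3.01%), and COX14 and SDHAF1 without VEGF CAM 2 (2.27% beside 3.71%). Only COX14 did so without VEGF CAM 3 (1.14% beside 3.26%). These outcomes, too, follow from which CAMs passed 2-fold. The median log2 ratio moved from -0.27 to -0.013 after median centring, while its distance to the median of all genes, chosen after seeing the data, was -0.20 and ran from -0.25 to -0.13. Among 238 alternative values of 20 named genes 2 changed sign, COX5A to -0.35 with the probe set of highest control signal and COX6A1 to -0.18 without shared probe sets. Many of the 238 could not move. Floors, filters and probe set choices leave a bright gene with 1 probe set unchanged. limma called 0 respiratory chain genes in each of 12 alternatives, and its fit was not run on means over probe sets. Higher probe sets made up 42.3% of all 2-fold calls as deposited, 55.8% after quantile normalization and 66.6% after median centring. The cause of these shifts was not tested beyond the scaling itself. No paired analysis was possible because the control is 1 pooled array. Dim signals, as of ATP5E and COX14, limit the ratios.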

Other observations

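Among neighbouring metabolic genes, glycolysis had 14 of 20 genes measured, 0 called by the 2-fold rule and a median log2 ratio of -0.00. Its members lay on both sides of the control. ALDOC, an aldolase, had 402 in the control pool and 678, 800.3 and 779 in VEGF CAM 1, 2 and 3. PFKL, the liver form of phosphofructokinase, had 54.9 in the control and 110.1, 88.2 and 87.8 in the CAMs. Every CAM was above the control in both genes. GPI, which interconverts glucose and fructose phosphates, had 4058 in the control and 2548, 3044 and 2495 in the CAMs, all below it.

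Antioxidant genes had a median log2 ratio of -0.16 over 15 genes, with 0 past the 2-fold rule. VEGF CAM 1 was lowest of the 3 CAMs in 12 of the 15 (80%), beside 34.0% of all genes. The share was 47.6% among genes with a mean signal of at least 1000, and 88.9% in the cytosolic ribosome. GPX4, which reduces lipid peroxides, had 5891 in the control and 2629, 4556 and 4454 in the CAMs. CAT, catalase, had 5414 in the control and 3219, 3545 and 4254 in the CAMs. Both genes had all CAMs below the control, with mean log2 ratios of -0.65 and -0.57 and limma adjusted p-values of 0.85 and 0.82. Genes of mitochondrial fission and fusion (6 measured of 9) had a median of -0.23 and 0 past the 2-fold rule.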
